A study of Danio rerio with 4 samples.

Results

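Whole zebrafish larvae mutant for mst1, the gene of macrophage stimulating protein (Msp), were compared with wild type at 6 days post fertilization (dpf). The comparison rests on the 2 dye-swapped arrays of that age among the 4 arrays of the study, and it covers all genes of the array outside the control spots. Of 19477 genes named on the array, 14086 were kept, because their probe stood well above background on both arrays in at least 1 genotype. A gene is given by its brightest kept probe, and counts, medians and ranks rest on these probes. Another 3848 kept probes had no gene name and were counted apart.

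Per the labels, each genotype gave RNA of a pool of 30 whole embryos of the WIK strain, raised in E3 medium at 28 °C, killed with an overdose of MS222 and frozen. The same was done at 3 dpf, so the study held 4 pools. At 6 dpf the mutant was labelled with Cy5 on array 1 and with Cy3 on array 2, and wild type carried the other dye. Both arrays were taken to hold the same RNA, which leaves 1 pool per genotype and no biological replicate. The labels give neither the kind of mutation nor the zygosity, and they do not say whether wild type and mutant were siblings. No test across genes was therefore used within this age: errors marked ± are the SD of the 2 arrays (n = 2), which measure labelling and hybridisation only. Ratios are given as log2 of mutant over wild type, so that a value of -1 means that the mutant had the lower signal by a factor of 2. The words higher and lower describe these 2 pools.

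Msp is a secreted relative of hepatocyte growth factor that is made mainly by the liver and circulates as an inactive precursor. Serine proteases cut it into its active form, which binds the receptor tyrosine kinase Ron on epithelial cells and on macrophages. In mammals the pathway is known for its effects on macrophage activation, on the gut epithelium and on wound repair. A zebrafish larva of this age has a working exocrine pancreas, liver and gut, and an eye whose lens and photoreceptors are still growing.

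The labelled material was checked through 16 defining markers of larval tissues, of which 15 were on the array. In both genotypes 14 of them were well above background on both arrays, among them fabp10a of hepatocytes, prss1 of the exocrine pancreas, ins of beta cells, rho of rods, cryaa of the lens and myl7 of the heart. The myelin gene mbpa was not on the array. The yolk gene vtg1 was well above background on 1 array per genotype and was not kept. The median spot signal was 146.5 and 149 in green over a background of 48.5 and 48, and 167 and 168.5 in red over 87 and 87.5. In wild type 60.8% (array 1, green) and 73.5% (array 2, red) of the probes were well above background, and in the mutant 73.6% (red) and 63.1% (green), so that the share went with the dye.

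Most genes differed little between the pools. The median log2 ratio was 0.01, the 5th and 95th percentiles were -0.32 and 0.30, and the median SD of the 2 arrays was 0.115. A gene was counted as different by size where the mean log2 ratio was at least 1 in either direction, both arrays gave the same sign with at least 0.5 each, and the higher genotype was well above background on both arrays. By this rule 83 genes, or 0.589% of those kept, stood apart. Of these, 35 (0.248%) were higher in the mutant and 48 (0.341%) were lower. Agilent's processed signals gave 138 higher and 118 lower genes, among them all 35 and 45 of the 48, and a normexp offset of 10 in place of 50 gave 56 and 75. The dimmer genotype was well above background on both arrays for 78 of the 83 genes, on 1 array for mtif2 and on 0 arrays for 4 genes. Further probes were kept for 39 of the 83 genes, and 53 of these 57 probes had the sign of the brightest probe.

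The 2 dye orientations gave an internal scale for these sizes. A mean beyond 1 in either direction was seen for 83 genes, whereas a half-difference between the arrays of that size was seen for 1 gene. Over all kept genes, which do not count as independent replicates, the arrays correlated at r = 0.431 (Spearman's rho = 0.253), and 57.0% of the genes had the same sign on both. A half-difference of at least 0.5 was found for 111 genes, and array 1 gave the higher ratio for 109 of them. All 111 had a half-difference of the same sign on the 3 dpf arrays, and 0 of them were among the 83 genes.

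**Figure D1:**
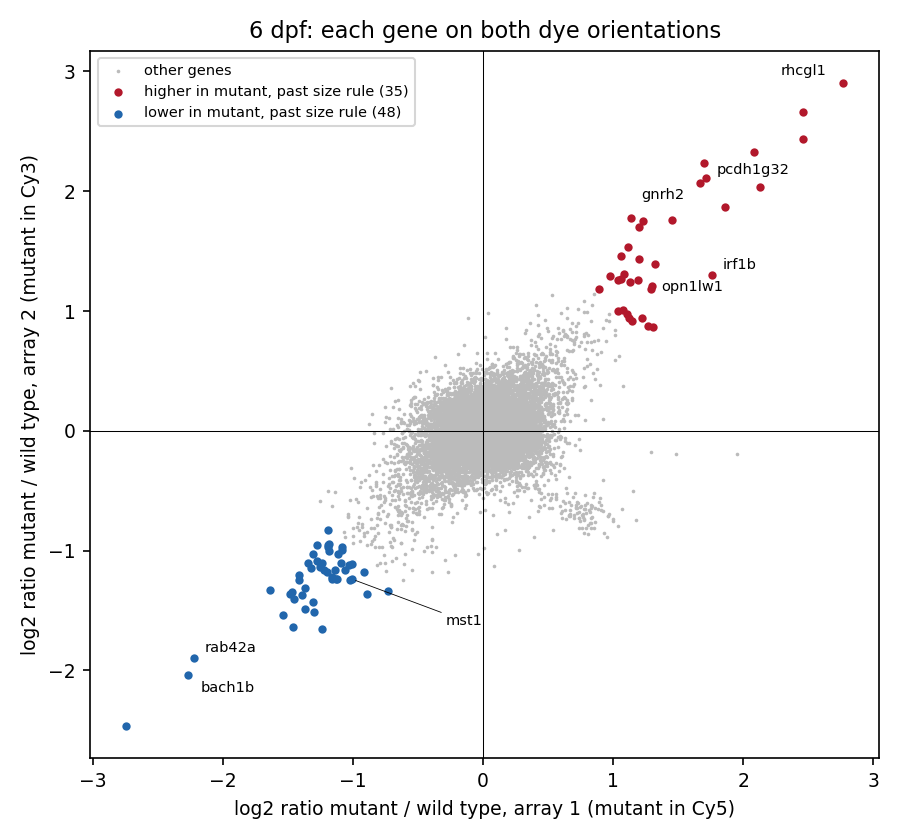
Log2 ratio of mutant over wild type at 6 dpf on array 1 (horizontal axis, mutant in Cy5) and array 2 (vertical axis, mutant in Cy3), with 1 point per gene for 14086 genes. The 35 genes higher (red) and 48 genes lower (blue) by the size rule lie along the diagonal, and the grey group at the lower right holds genes whose ratio went with the dye.

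The mutated gene itself was lower in the mutant pool. Its probe had a log2 signal of 8.05 and 8.22 in wild type and of 7.04 and 6.98 in the mutant on arrays 1 and 2. These are 2 readings of 1 pool per genotype. The log2 ratio of mst1 was -1.12 ± 0.16, or 2.18-fold lower, and it stood well above background in both genotypes. Where the probe lies relative to the mutation is not given in the sources used here, so the probe does not show what protein was left. The array had 15 of the 19 listed genes of the Msp and hepatocyte growth factor pathway, and 12 were measured. The Ron gene mst1ra had 1 probe, which was not well above background on any of the arrays, and mst1rb was not on the array.

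Among the measured pathway members, 6 of 12 lay above 0 (52.3% of all kept genes did). The median was 0.00, and mst1 was the only member past the size rule. The plasminogen gene plg, a close relative of mst1 that encodes the precursor of plasmin, stood at -0.58 ± 0.10, but its other probe at -0.04. The Kunitz-type inhibitors of the activating proteases stood at -0.07 ± 0.06 for spint1a and 0.24 ± 0.13 for spint2. Prothrombin (f2) stood at 0.03 ± 0.32, with opposite signs on the 2 arrays. The adaptor grb2b, which links receptor tyrosine kinases to Ras, stood at 0.29 ± 0.20. Apart from mst1 and plg, no measured member differed by 0.5 or more (1.44% of all kept genes reached 0.5 and 2.01% -0.5).

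Digestive enzymes of the exocrine pancreas were lower in the mutant pool almost throughout. The exocrine pancreas secretes proteases, amylase and lipases into the gut as soon as the larva feeds. Of 27 measured enzyme genes, 26 were below 0, each of them on both arrays, against 47.7% of all kept genes. A log2 ratio of -0.5 or less was reached by 23 of the 27, against 2.01% of all kept genes, and 8 passed the size rule, all of them lower. The median was -0.72, with -0.86 on array 1 and -0.68 on array 2. The exception was prss60.2, at 0.29 ± 0.03, which was chosen for mention after its value was seen.

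The enzymes past the size rule covered lipid, starch and protein digestion. The carboxyl ester lipase gene cel.2 had log2 signals of 11.90 and 11.89 in wild type and of 10.44 and 10.49 in the mutant, a ratio of -1.43 ± 0.04 or 2.69-fold lower. Its 2 other kept probes did not follow: one stood at -0.17, and the other, not well above background in wild type, was at least 1.27-fold higher in the mutant. The alpha-amylase gene amy2a had 11.84 and 11.90 in wild type and 10.47 and 10.58 in the mutant (-1.34 ± 0.04). Its relative amy2al2 stood at -1.15 ± 0.02, with its other probe at -0.79. The carboxypeptidase B gene cpb1, whose product trims basic residues from peptide ends, had 12.12 and 12.22 against 10.72 and 10.85 (-1.38 ± 0.02), with its 2 other probes at -0.83 and -0.76. For each of these probes the signals of the genotypes did not overlap. That adds no support, since the probes were picked by the size rule and read from 1 pool per genotype.

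Elastases cut proteins after small residues. The elastase gene ela2l had log2 signals of 15.79 and 15.93 in wild type and of 14.71 and 14.94 in the mutant, a ratio of -1.04 ± 0.06. The ratios were -1.20 ± 0.05 for ela3l, whose other probe stood at -0.72, and -1.23 ± 0.13 for cela1.6, whose other probe stood at -1.04. All 8 measured elastase genes were below 0, with a median of -0.75. The gene zgc:92590 also passed the rule, at -1.43 ± 0.08.

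Trypsin and chymotrypsin genes, which encode the main endoproteases of pancreatic juice, were lower, but their brightest probes did not pass the size rule. Of 7 measured, 6 were below 0 with a median of -0.67. The trypsin gene prss1, the brightest of the list, had log2 signals of 16.68 and 16.64 in wild type and of 16.05 and 15.96 in the mutant (-0.65 ± 0.03). Its other probe stood at -1.06. The chymotrypsin-like gene ctrl stood at -0.84 ± 0.04, with its other probe at -1.15. The gene ctrb.1 stood at -0.65 ± 0.08, with another probe at -1.23. The size of these differences thus depended on the probe. Probes of these families may read several near-identical copies, so the values of single paralogs are uncertain.

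Regulators and hormones listed for the pancreas had medians near 0. In whole larvae these lists are not limited to that organ. The gene nkx2.2a was also in the myelin and glia list, and sst1.1 in the brain and pituitary hormone list. The median of the 4 measured transcription factors of the exocrine pancreas was -0.03, and pdx1, needed for the whole organ in the embryo, stood at -0.16 ± 0.07. Of 14 endocrine genes, 0 reached 0.5 in either direction (1.44% of all kept genes reached 0.5 and 2.01% -0.5), and the median was -0.02. Insulin (ins) stood at -0.38 ± 0.21 and its other probe at -0.58, and the endocrine factor neurod1 had a second probe at -0.57 beside -0.25 for the brightest. The values were -0.31 ± 0.15 for somatostatin 2 (sst2) and 0.32 ± 0.33 for glucagon (gcga), whose other probe stood at 0.02. In whole larvae, fewer cells of a type and less RNA per cell cannot be told apart, here and for every tissue below.

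Liver genes were mixed. Of 28 plasma protein and hepatocyte genes, 10 were above 0 (52.3% of all kept genes were). The median was -0.11, and the arrays gave -0.20 and 0.02. The fetuins ahsg2 and ahsg1 stood at -0.66 ± 0.01 and -0.59 ± 0.13, the copper carrier cp at -0.57 ± 0.09 and apolipoprotein E (apoea) at -0.54 ± 0.01. Other probes gave smaller differences, at -0.27 for ahsg2, -0.26 and -0.21 for ahsg1, and -0.21 and -0.17 for cp. In the other direction the retinol binding protein gene rbp2b stood at 0.81 ± 0.12 and the liver fatty acid binding protein gene fabp10a at 0.50 ± 0.09. None of the 28 passed the size rule (0.589% of all kept genes did).

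Bile acid genes were the higher end of the digestive lists. Of 7 measured genes 5 were above 0 and 3 reached 0.5 (52.3% and 1.44% of all kept genes did). The median was 0.42, with 0.38 and 0.46 on the arrays (0.27 without the filter on dim probes). The gene cyp7a1, whose enzyme limits the rate of bile acid synthesis, had log2 signals of 7.54 and 7.66 in wild type and of 8.76 and 8.60 in the mutant, a ratio of 1.08 ± 0.20, and was the only one past the size rule. The nuclear receptor nr0b2a (SHP), which represses cyp7a1 in mammals, stood at 0.72 ± 0.12. Of the genes of intestinal bile acid uptake, the ileal binding protein fabp6 stood at 0.54 ± 0.13 and the transporter slc10a2 at 0.42 ± 0.06, whose other probe was not well above background in wild type and at least 3.59-fold higher in the mutant. The 12-hydroxylase gene cyp8b1.1 stood at -0.14 ± 0.15.

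Genes of nutrient uptake by enterocytes had a median of -0.14 over 22 genes, and 0 of them reached 0.5 in either direction. Of all kept genes, only 1.44% reached 0.5 and 2.01% stood at -0.5 or less. The triglyceride synthesis gene dgat2 stood at -0.46 ± 0.14, but its 2 other probes at -0.26 and 0.77. The glucose transporter slc2a2 stood at -0.42 ± 0.16, with other probes at -0.26 and 0.02, and the intestinal fatty acid binding protein fabp2 at -0.25 ± 0.14. Cholesterol and fatty acid synthesis had a median of -0.05 over 27 genes, with 0.02 and -0.04 on the arrays. The members furthest from 0 were the desaturase fads2 at -0.80 ± 0.02 (5 other probes between -0.63 and -0.03), the sterol carrier stard4 at -0.63 ± 0.07 and the LDL receptor ldlra at -0.54 ± 0.23.

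The lens showed the other broad set of low values. Crystallins are the bulk proteins of lens fibre cells and give the lens its refractive power. Of 46 measured crystallin genes 35 stood at -0.5 or less (2.01% of all kept genes did), 9 were past the size rule, all lower (0.341% of all), and 1 was above 0 (52.3% of all). That 1 was cryaa at 0.00 ± 0.15, with opposite signs on the arrays. The median over the 46 was -0.75, with -0.61 on array 1 and -0.89 on array 2. These counts take 17 crygm2d genes singly, although their probes may read each other's transcripts. All 17 stood at -0.5 or less, and 3 of them were past the size rule.

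The classes of crystallins differed in size. All 31 gamma crystallins, 17 of them crygm2d genes, were below 0, with a median of -0.78. So were all 12 beta crystallins, with a median of -0.53. The 2 measured alpha crystallins, which belong to the small heat shock proteins, stood at 0.00 for cryaa and at -0.06 for cryabb (cryabb was chosen after its value was seen). The lowest member was crybgx, with log2 signals of 14.40 and 14.19 in wild type and of 12.75 and 12.86 in the mutant, a ratio of -1.49 ± 0.22 or 2.80-fold lower. The gamma crystallin crygm2a had 15.60 and 15.41 against 14.25 and 14.31 (-1.23 ± 0.18), and its other probe stood at -0.61. The beta crystallin cryba2b stood at -1.19 ± 0.04 (other probes at -1.86 and -1.35), crygm1 at -1.20 ± 0.08 and cryba1l1 at -1.07 ± 0.06.

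The 17 measured crygm2d genes are close copies that lie in a cluster, so their probes may read each other's transcripts. The crystallin counts above hold them singly and are therefore not counts of separate signals. All 17 stood at -0.5 or less, and their median was -0.55 on array 1 and -1.04 on array 2, the widest gap between the dye orientations among the subfamilies described here. The lowest of them, crygm2d13, stood at -1.24 and -1.66 on the arrays. Those past the size rule also held crygm2d11 (-1.14 ± 0.16) and crygm2d8 (-1.06 ± 0.17), beside crygm2b (-1.07 ± 0.17).

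Other lens genes went the same way at smaller size. Of 16 measured genes for lens membrane proteins, cytoskeleton and transcription factors, 4 were above 0 (52.3% of all kept genes were). The median was -0.35. The lens glutamine synthetase-like gene lgsn passed the size rule at -1.17 ± 0.20. The beaded filament gene bfsp2 stood at -0.92 ± 0.47 and dnase1l1l, whose product degrades fibre cell DNA, at -0.89 ± 0.12. The membrane protein genes lim2.5, lim2.4 and lim2.1 stood between -0.52 and -0.50. The lens epithelial protein gene lenep, which was in no list, was also lower past the size rule, at -1.18 ± 0.08.

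**Figure D2:**
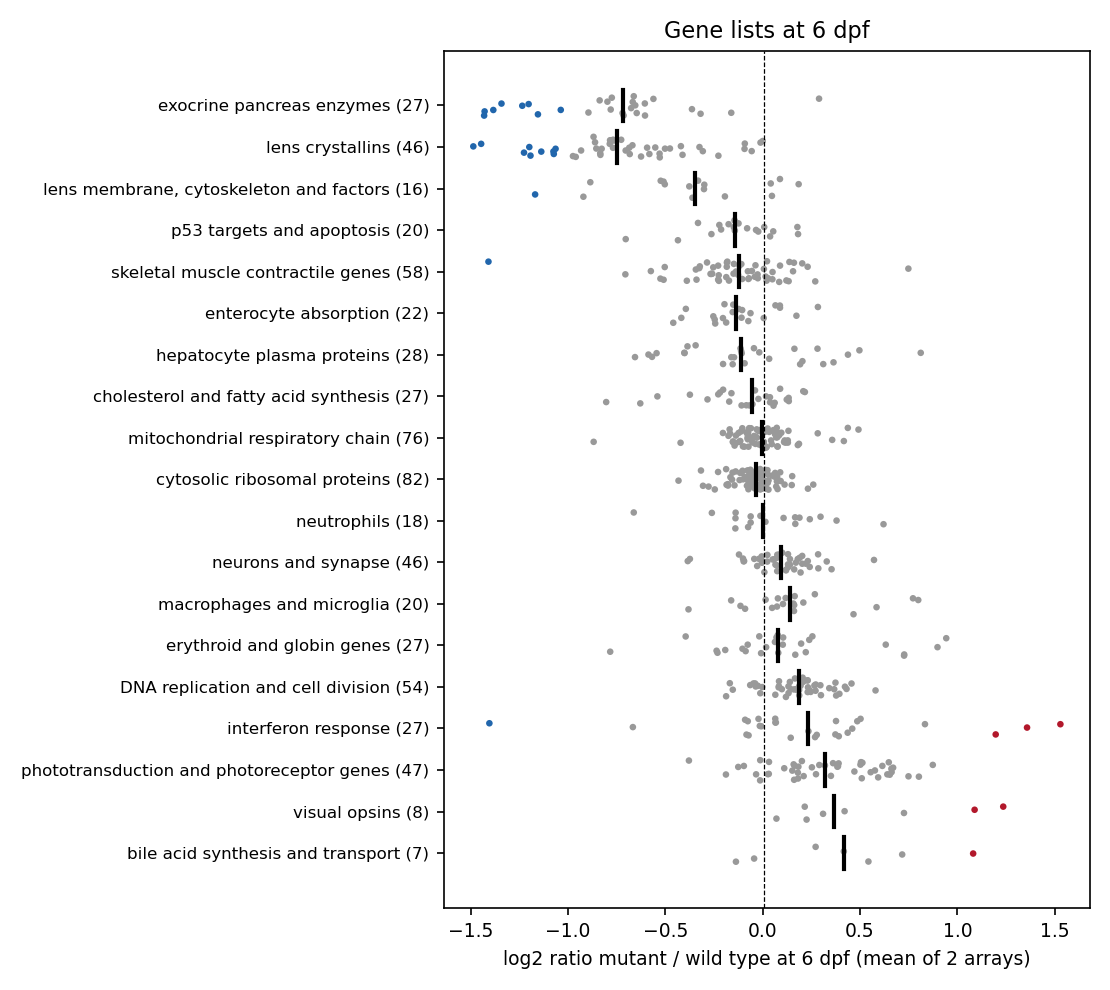
Log2 ratio of mutant over wild type at 6 dpf (horizontal axis, mean of 2 arrays) for the measured genes of 19 lists, with the number of genes in brackets and 1 point per gene. Red and blue points passed the size rule, black bars are list medians, and the dashed line is the median of all 14086 genes. Exocrine pancreas enzymes and lens crystallins lie mostly left of the dashed line (medians -0.72 and -0.75), and photoreceptor genes, opsins and bile acid genes mostly right of it.

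Photoreceptor transcripts were higher in the mutant pool, in contrast to the lens genes. Opsins are the light-sensing receptors of rods and cones. All 8 measured visual opsin genes lay above 0 on both arrays, against 52.3% of all kept genes with a mean above 0, and their median was 0.37. The red cone opsin opn1lw1 had log2 signals of 10.76 and 10.75 in wild type and of 12.05 and 11.93 in the mutant, a ratio of 1.24 ± 0.07 or 2.35-fold higher. The green cone opsin opn1mw2 had 10.50 and 10.68 against 11.80 and 11.55 (1.09 ± 0.31), and its other probe stood at 0.83. Rhodopsin (rho) had 15.50 and 15.90 against 16.57 and 16.28, a ratio of 0.73 ± 0.49 whose arrays differed widely, although its 8 other probes lay between 0.66 and 0.94.

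The remaining opsins stood between 0.07 and 0.42. The second red opsin opn1lw2 stood at 0.42 ± 0.16, the blue opsin opn1sw2 at 0.31 ± 0.16 and the green opsin opn1mw1 at 0.23 ± 0.02. Tandem opsin genes are similar in sequence, so part of the signal may be shared between opn1lw1 and opn1lw2 and between the green opsins.

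The enzymes downstream of the opsins were higher as well, though none of them passed the size rule (0.589% of all kept genes did). Of 47 phototransduction and photoreceptor genes 40 were above 0, 17 reached 0.5 and 0 stood at -0.5 or less. Of all kept genes 52.3%, 1.44% and 2.01% did. The median of the list was 0.32, with 0.39 and 0.30 on the arrays. Of the rod genes, the phosphodiesterase subunit gene pde6ga stood at 0.87 ± 0.06 and the transducin gnat1 at 0.80 ± 0.02. Of the cone genes, the phosphodiesterase pde6c stood at 0.66 ± 0.26 and the transducin gnat2 at 0.50 ± 0.04. The cone opsin kinase genes grk7a and grk7b stood at -0.03 and -0.01 (named with their values known), but the 2 other grk7a probes at 0.24 and 0.26. Of the visual cycle genes, the isomerase rpe65a of the pigment epithelium stood at 0.75 ± 0.04 and the retinal carrier rlbp1b at 0.66 ± 0.02, whereas the paralog rpe65b stood at -0.01. The calcium sensor guca1ab.1 was the lowest member at -0.38 ± 0.14 (chosen after its value was seen).

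The hormone genes of brain and pituitary held a pair of large differences. The gene of gonadotropin-releasing hormone 2, gnrh2, a midbrain neuropeptide, had log2 signals of 8.06 and 7.84 in wild type and of 9.73 and 9.92 in the mutant. Its ratio was 1.87 ± 0.29, or 3.65-fold higher, and its 2 other probes stood at 1.52 and 1.70. The pro-opiomelanocortin gene pomca, precursor of adrenocorticotropic hormone, stood at 1.16 ± 0.15. Of 25 measured hormone genes 18 were above 0 (52.3% of all kept genes were), and the median was 0.19. The melanin-concentrating hormone-like gene pmchl stood at 0.61 ± 0.08 and the tachykinin gene tac1 at 0.50 ± 0.22. The common glycoprotein hormone subunit cga was not well above background in wild type and was at least 1.27-fold higher in the mutant. In the glucocorticoid response list the median was 0.02 over 27 genes, and the chaperone gene fkbp5, a standard target of cortisol, stood at -0.71 ± 0.33 with its other probe at 0.16.

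Over the brightest probe of each gene, the highest ratio was that of rhcgl1, a Rhesus glycoprotein that carries ammonia out of skin and gill ionocytes. Its log2 signals were 7.65 and 7.55 in wild type and 10.42 and 10.46 in the mutant, a ratio of 2.84 ± 0.09 or 7.15-fold higher. One of its other probes gave 1.63, and the other, not well above background in wild type, was at least 1.38-fold higher, so the size depends on the probe. A dimmer probe of another gene, ctsba, had a wider difference, of at least 23.2-fold. The other 29 measured ionocyte and ammonium transport genes did not pass the size rule (0.589% of all kept genes did). The median of the list was 0.01. The hypocalcaemic hormone stanniocalcin (stc1l) stood at -0.81 ± 0.30, the Rhesus gene rhbg at -0.39 ± 0.36 and the sodium pump subunit atp1b1b at 0.47 ± 0.21.

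**Figure D3:**
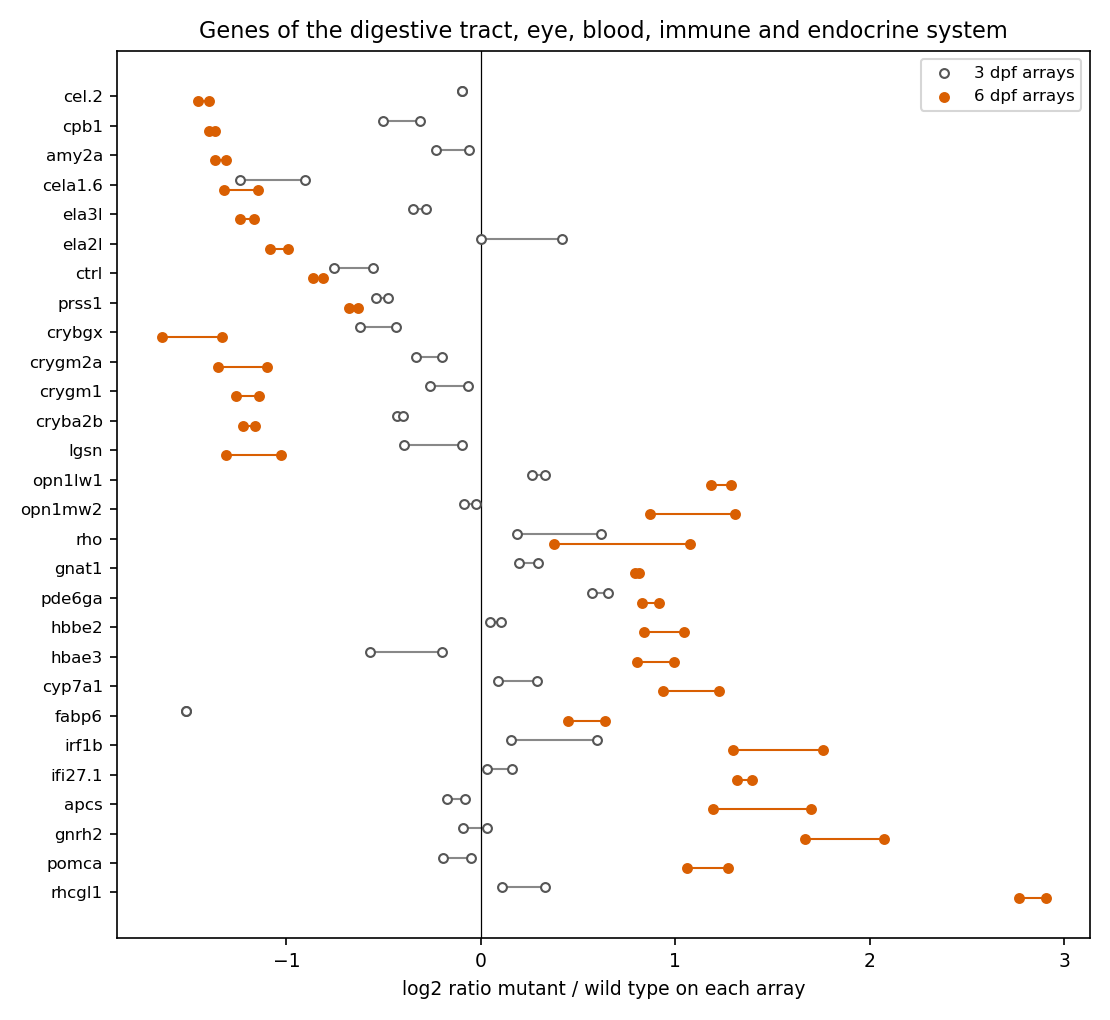
Log2 ratio of mutant over wild type (horizontal axis) for 28 genes on each array, with filled points for the 2 arrays at 6 dpf and open points for the 2 arrays at 3 dpf, joined by a line within an age. For cel.2, amy2a, the crystallins, the red opsin opn1lw1, gnrh2 and rhcgl1 the 6 dpf points lie apart from the 3 dpf points, whereas those of cela1.6 overlap and those of prss1 lie close together.

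Interferon-related genes were partly higher. Of 27 measured genes, 18 were above 0 (52.3% of all kept genes were), 5 reached 0.5 (1.44% of all), and 3 were higher and 1 lower past the size rule (0.248% and 0.341% of all), with a median of 0.24 (0.20 and 0.25 on the arrays, and 0.12 without the filter on dim probes). The transcription factor irf1b had log2 signals of 7.94 and 8.08 in wild type and of 9.70 and 9.38 in the mutant (1.53 ± 0.32), but its other probe stood at 0.18. The neighbouring interferon-induced genes ifi27.1 and ifi27.2 were also higher, with a ratio of 1.36 ± 0.05 for ifi27.1 and with 1.08 and 1.31 on arrays 1 and 2 for ifi27.2. The antiviral effector genes differed less, with 0.83 ± 0.29 for xaf1 (its other probe at 0.22) and -0.01 ± 0.05 for mxc. The cytokine signalling inhibitor socs1a stood at -0.67 ± 0.05, and the MHC class I gene mhc1ze at -1.40 ± 0.15. Its 3 other probes were not well above background in the mutant and were lower there by at least 1.29-fold, 1.77-fold and 2.92-fold. MHC class I genes are highly polymorphic in zebrafish, and a probe made for one haplotype may not read another.

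Macrophages are the immune cells on which Ron is best known. Of 20 macrophage and microglia genes, 16 were above 0 and 3 reached 0.5 (52.3% and 1.44% of all kept genes did), with a median of 0.14. None passed the size rule (0.589% of all kept genes did). The perforin-like genes mpeg1.2 and mpeg1.1 stood at 0.80 ± 0.07 and 0.58 ± 0.08, the granulin grna.2 at 0.77 ± 0.08 and the master transcription factor spi1a at 0.47 ± 0.19. The lysosomal protease gene ctsd stood at 0.08 ± 0.16. The probes of ctsba, another such gene, disagreed: the brightest stood at -0.38 ± 0.09 and another at 0.43, and one that was not well above background in wild type was at least 23.2-fold higher in the mutant. The 18 neutrophil genes had a median of 0.00, with 9 above 0 (52.3% of all kept genes were) and 9 below it. Among the higher were lect2l at 0.62 ± 0.15 and the NADPH oxidase subunit ncf1 at 0.38 ± 0.01. Among the lower was nccrp1 at -0.26 ± 0.002, with its other probe at -0.19. The lowest gene of that list, cpa5 at -0.66 ± 0.01, is a carboxypeptidase that the pancreas list also held. Of the 5 measured lymphocyte genes 0 reached 0.5 (1.44% of all kept genes did), and their median was 0.02.

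Acute inflammation and the acute phase showed single genes rather than whole lists. The median of the 16 inflammation genes was -0.01. The itaconate-producing enzyme gene irg1l stood at 1.33 ± 0.30, and the prostaglandin synthase ptgs2b at 0.69 ± 0.18. In the other direction hamp stood at -0.90 ± 0.02, nfkbiaa at -0.39 ± 0.015 and cxcl18b at -0.30 ± 0.07. The chemokine ccl20a.3 was not well above background in wild type and was at least 1.47-fold higher in the mutant. The median of the 22 acute phase and complement genes was -0.03. The pentraxin apcs had log2 signals of 6.95 and 6.66 in wild type and of 8.15 and 8.36 in the mutant, a ratio of 1.45 ± 0.36. Complement C3 (c3a.2) stood at -0.54 ± 0.14, with its other probe at 0.18, and complement C9 at 0.43 ± 0.17.

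Genes of blood, heme and iron gave differences in both directions. Larval globins were higher in the mutant pool. Of 5 measured, 4 reached 0.5 (1.44% of all kept genes did), though none passed the size rule (0.589% of all did). This group was drawn from the erythroid list after the values were seen. The beta globin hbbe2 had log2 signals of 12.75 and 12.67 in wild type and of 13.59 and 13.72 in the mutant (0.94 ± 0.15), the alpha globin hbae3 stood at 0.90 ± 0.14 and hbbe1.1 at 0.73 ± 0.16. The globin hbae1.1 stood at 0.73 ± 0.45, and probes of these near-identical genes may share signal. The first enzyme of heme synthesis in red cells, alas2, stood at 0.63 ± 0.38, and its ubiquitous counterpart alas1 at 0.52 ± 0.04. The median of all 27 erythroid genes was 0.08.

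The heme-binding transcriptional repressor bach1b was the lowest gene with a symbol. It had log2 signals of 9.18 and 9.22 in wild type and of 6.91 and 7.17 in the mutant, a ratio of -2.15 ± 0.16 or 4.45-fold lower. Its paralog bach1a stood at 0.01 ± 0.03 and the heme oxygenase gene hmox1a, which Bach1 represses in mammals, at 0.15 ± 0.03. The other heme oxygenase gene, hmox1b, stood at 0.32 ± 0.20. All of these were picked with their values known. The iron-sensing transferrin receptor tfr2 stood at -1.10 ± 0.01. The hormone that limits iron release, hamp, stood at -0.90 ± 0.02, and its 3 other probes were lower too, one of them not well above background in the mutant. The biliverdin reductase blvrb stood at -0.78 ± 0.22, with its other probe at -0.08. Over the 26 iron and heme genes the median was -0.09.

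Skeletal muscle was slightly lower as a list, with 1 gene past the rule. The median over 58 contractile genes was -0.12 (-0.30 with median centring in place of loess). Of the 58, 18 were above 0 and 6 stood at -0.5 or less (52.3% and 2.01% of all kept genes did). The Kelch protein gene klhl41b, which stabilises thin filament proteins in muscle, stood at -1.41 ± 0.09, and the gene tmem182a, known from muscle and fat in mammals, at -1.19 ± 0.04. The light chain myl1 stood at -0.71 ± 0.22, the troponin T gene tnnt3a at -0.57 ± 0.06 and the troponin I gene tnni2b.1 at 0.75 ± 0.01. The brightest muscle probes turned with the dye, with actc1b at 0.33 and -0.48 and tnnt3b at 0.35 and -0.72 on arrays 1 and 2. In the heart list, the light chains cmlc1 and myl7 stood at 0.67 ± 0.26 and 0.53 ± 0.07 and the troponin tnni1c at -0.59 ± 0.14, over 7 genes with a median of 0.19.

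Skin and skeleton gave few large values. Of 33 epidermal and keratin genes the median was 0.08, and it was -0.04 with median centring. The keratin krt18b passed the size rule at -1.18 ± 0.14, but its other probe stood at 0.30. The larval skin keratins cyt1 and krt4 stood at -0.65 ± 0.15 each, and krt5 at 0.52 ± 0.09, with 5 other probes between -0.57 and 0.35. Of 33 cartilage and bone genes the median was 0.09. Collagen X (col10a1a), a product of hypertrophic chondrocytes and of fish osteoblasts, passed the rule at 1.04 ± 0.21, with other probes at 0.34 and 0.62. The angiogenesis inhibitor of cartilage, cnmd, stood at -0.68 ± 0.36 with its other probe at 0.39.

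Genes of DNA replication and cell division leaned to the higher side. Of 54 measured genes 44 were above 0 (52.3% of all kept genes were). The median was 0.19, with 0.21 and 0.17 on the arrays and 0.29 from Agilent's processed signals. Sizes were small: dhfr, which supplies thymidylate synthesis, stood at 0.58 ± 0.03, with its other probe at 0.08, and was the only one to reach 0.5. The helicase subunits mcm5 and mcm2 stood at 0.46 ± 0.09 and 0.43 ± 0.07, and mcm7 at -0.02 ± 0.35. For p53 targets and apoptosis, 5 of 20 genes were above 0 (52.3% of all kept genes were) and the median was -0.14. The DNA damage gene gadd45ab stood at -0.70 ± 0.12. For heat shock and protein folding, 40 of 55 genes were above 0, against the same 52.3%, with a median of 0.11. The endoplasmic reticulum chaperones dnajb11 and hspa5 stood at 0.68 ± 0.01 and 0.40 ± 0.12, the collagen chaperone serpinh1b at 0.56 ± 0.10 and the stress transcription factor atf4a at -0.68 ± 0.19. Another chaperone gene, hsc70, was lower, at -0.61 ± 0.02.

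The remaining lists stayed close to the median of all genes. Neuron and synapse genes had a median of 0.09 over 46, myelin and glia 0.07 over 21, the circadian clock 0.04 over 35, the respiratory chain -0.01 over 76 and cytosolic ribosomal proteins -0.04 over 82. Some dimmer probes departed from this. The ribosomal gene rpl36 stood at 0.02 ± 0.32, but its 2 other probes at -1.91 and -2.42. The last was not well above background in the mutant and was at least 5.35-fold lower there. The respiratory chain gene ndufa1 stood at -0.18 ± 0.08, but its other probe at -1.23. The activity-induced transcription factors had a median of -0.05 over 30, and the 3 measured yolk genes -0.04. Among genes of the xenobiotic response the aryl hydrocarbon receptor repressor ahrra stood at 1.03 ± 0.13, its other probe at 0.16, and the median of 33 genes was 0.11. The cytochrome oxidase subunit cox7a1 stood at -0.87 ± 0.03. Of the clustered protocadherins, neuronal adhesion proteins encoded by large arrays of similar genes, pcdh1g32 stood at 1.91 ± 0.28, pcdh2g28 at 0.53 ± 0.03 and pcdh1g18 at -0.55 ± 0.01 (3 other probes between -0.69 and 0.80), and the median was 0.00 over the 27 genes of their list, which also held MHC class I genes.

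Of the 83 genes, 45 belonged to none of the 39 lists. Higher among them were nabp1a, whose protein binds single-stranded DNA (1.23 ± 0.05), the kynurenine aminotransferase kyat1 (1.19 ± 0.08), the mitochondrial translation factor mtif2 (1.04 ± 0.05) and the epithelial ETS factor elf3 (1.03 ± 0.16). The gonadal somatic cell factor gsdf was not well above background in wild type and was at least 2.02-fold higher in the mutant (a bound, since the wild type signal is uncertain). The genes tcta, ccdc125 and hspa12a, the last a distant relative of the heat shock proteins, stood at 1.32 ± 0.17, 1.15 ± 0.15 and 1.14 ± 0.22, but the other hspa12a probe at 0.07. Lower among them were genes of varied function. The small GTPase rab42a stood at -2.06 ± 0.23, the ciliary membrane protein tmem218 at -1.54 ± 0.00, the Cdk5 activator cdk5r2b at -1.33 ± 0.12 and the plasminogen receptor plgrkt at -1.04 ± 0.43. The other cdk5r2b probe had the opposite sign, at 0.23, and the 2 other plgrkt probes stood at -0.51 and -0.32.

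Further lower genes of no list had roles in the nucleolus, chromatin or outside the cell. The nucleolar protein nol12 stood at -1.55 ± 0.13, the ribosome biogenesis factor nsa2 at -1.11 ± 0.23 and the Enhancer of Polycomb homolog epc2 at -1.19 ± 0.08. The phospholipase pla1a stood at -1.11 ± 0.07, but had another probe of the opposite sign. The thrombospondin thbs3b stood at -1.08 ± 0.16, and the astacin protease c6ast3 at -1.01 ± 0.26. The gene zgc:194659 was not well above background in the mutant and was at least 6.08-fold lower there, while its other probe, also not well above background in the mutant, was at least 1.57-fold lower. It has no name beyond its clone and was chosen after its value was seen. Among the 3848 probes without a gene name, 15 were higher and 2 lower past the same rule.

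At 3 dpf the same probes gave 55 genes past the rule (0.39%). The pools of that age are separate from those at 6 dpf, but are again 1 per genotype, and differences between the ages were not tested. Of the 83 genes, 69 had the same sign at 3 dpf and 24 were also past the rule there in the same direction, 12 higher and 12 lower. The share of all kept genes with the same sign at both ages was not computed, so the count of 69 has no reference. The 35 higher genes had a median of 1.26, against 0.65 for the same genes at 3 dpf, and the 48 lower genes had -1.19 and -0.50. These genes were chosen by their 6 dpf values, so smaller medians at 3 dpf follow at least in part from that choice.

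Several genes had values of similar size at both ages. At 6 and 3 dpf, bach1b stood at -2.15 ± 0.16 and -1.92 ± 0.01, rab42a at -2.06 ± 0.23 and -1.54 ± 0.04, and nol12 at -1.55 ± 0.13 and -1.33 ± 0.01. Values for mhc1ze were -1.40 ± 0.15 and -1.39 ± 0.12, and for tfr2 -1.10 ± 0.01 and -1.06 ± 0.04. Higher at both ages were pcdh1g32 (1.91 ± 0.28 and 2.25 ± 0.23), nabp1a (1.23 ± 0.05 and 1.37 ± 0.04) and hspa12a (1.14 ± 0.22 and 1.22 ± 0.21). Among the pancreas enzymes past the size rule, the elastase cela1.6 had the closest values, at -1.23 ± 0.13 and -1.07 ± 0.24. Short of the rule, prss1 stood at -0.65 ± 0.03 and -0.51 ± 0.04. The enzyme gene pdia2, picked with its values known, stood at -0.56 ± 0.18 and -0.49 ± 0.13.

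The eye and pancreas lists had medians closer to 0 at 3 dpf. The crystallins had -0.75 at 6 dpf and -0.12 at 3 dpf, other lens genes -0.35 and 0.02, phototransduction genes 0.32 and 0.10, and opsins 0.37 and 0.22. The pancreas enzymes had -0.72 and -0.12, but 8 of the 27 were not well above background on any 3 dpf array, cel.2 and amy2al2 among them. The 14 enzyme genes well above background on both 3 dpf arrays in at least 1 genotype had medians of -0.75 at 6 dpf and -0.34 at 3 dpf. Among large single values at 6 dpf, gnrh2 stood at -0.03 ± 0.09 at 3 dpf, ifi27.1 at 0.10 ± 0.09 and cyp7a1 at 0.19 ± 0.14, and rhcgl1 was not well above background at that age.

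**Figure D4:**
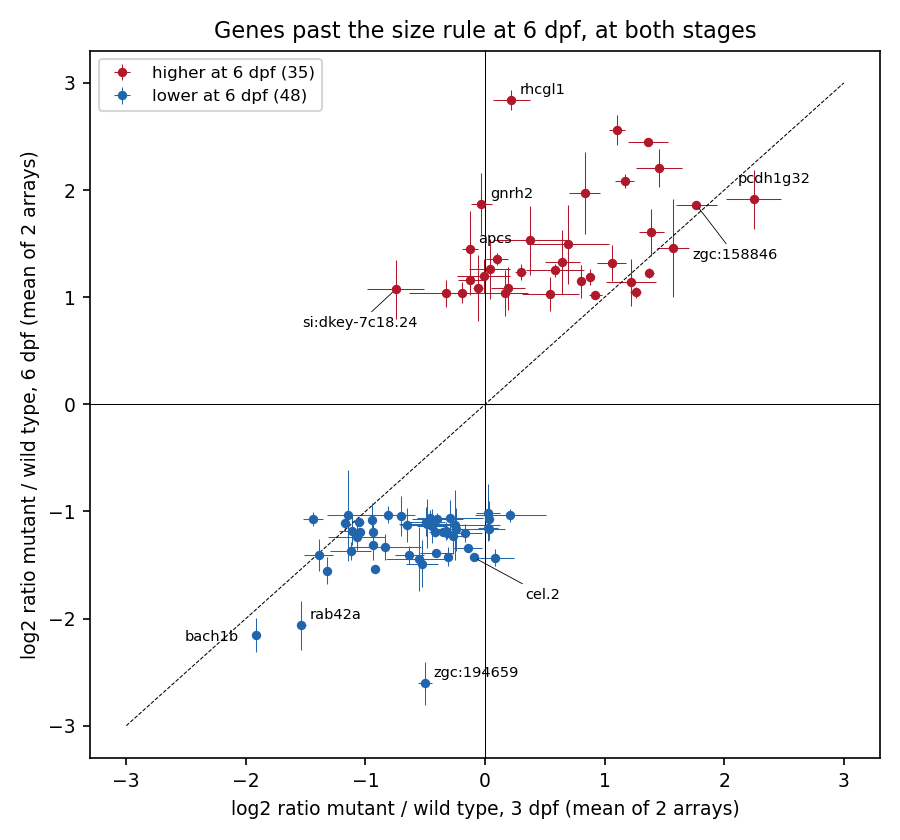
Log2 ratio of mutant over wild type at 3 dpf (horizontal axis) and 6 dpf (vertical axis) for the 83 genes past the size rule at 6 dpf, as means of 2 arrays with bars of ± 1 SD of the arrays and a dashed line of equality. Genes such as bach1b and pcdh1g32 lie near the line, whereas rhcgl1, gnrh2, apcs and cel.2 lie near 0 at 3 dpf.

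The position of the genes was set against that of mst1 through the gene order of the GRCz12tu RefSeq annotation, whose build differs from that of the files, so no coordinates are given. Of the kept genes 11979 could be placed, and of the 83 genes 69. Within 100 gene places of mst1, 0 of 92 kept genes other than mst1 passed the size rule, and within 200 places 2 of 150 did (0.589% of all kept genes did), tcta and opn1mw2. On the whole chromosome 8 of 530 kept genes passed it, mst1 included, or 1.51% against 0.589% of all kept genes. The others were klhl41b, mtif2, rhcgl1, zgc:158846 and krt18b. Over all chromosomes the genes past the rule formed 8 blocks of near neighbours within 10 gene places, with 22 genes. How many genes drawn from all placed genes would fall in such blocks was not computed. The block with the most members held 7 genes, of which 6 were gamma crystallins. It included crygm2d13, crygm2d11 and crygm2d8, whose probes may read each other's transcripts. In another block ifi27.1 lay beside ifi27.2.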

How the data were processed

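Per the file headers, the arrays were read with Agilent Feature Extraction 10.5.1.1, while version 8.5.1.1 stands in the submitters' processing notes. The deposited scanner files give the median signal, local background and processed signal of each spot in each channel (Cy3, green, or Cy5, red) as intensity on a linear scale. The deposited series table was set against them. Its column for array 1 at 6 dpf held the log2 ratio of that array, and its column for array 2 held log2 ratios averaged over the 6 dpf arrays. It was used as an alternative only. The deposited column for array 1 at 3 dpf correlated with its own array at -0.00428. Its values were taken as a deposited score in unknown order and were not used. All column medians were 0.

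Each array had 45220 spots, 1417 of them controls, and the other spots held 43603 probes. At 6 dpf 5 and 8 outlier spots were left out, and 0 spots were saturated. Probes were named through the RefSeq accession (25625), the symbol (3109) or an older symbol (1417) in reference tables. Another 5328 kept the symbol of the files, and 8124 had none. Precision is limited by the number of arrays.

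Values were computed with limma 3.58.1 in R 4.3.3, and tables and figures with pandas 2.3.3, numpy 2.4.6 and matplotlib 3.10.9 in Python 3.11.15. The background was corrected by normexp (offset 50) on the spot median and the background median, and each array's ratios were loess-normalized with controls at weight 0. Spots of a probe were averaged, the sign was turned to mutant over wild type, and the brightest kept probe stood for a gene. Signals per genotype came from loess and Aquantile over the 4 arrays. They are log2 values of a probe, and levels of different probes are not compared. A bound ("at least") was computed, per array, against the higher of the lowest signal well above background and the dim probe's own signal. Where the latter was higher, as for the bounds of gsdf, ccl20a.3 and zgc:194659, the bound equals the measured fold. The procedure was tested on simulated data. A limma test over both ages, with 1 residual degree of freedom, was not used.

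Gene lists and members were chosen with earlier results of these data known. Named are mst1, up to 25 highest and 25 lowest genes past the size rule with a symbol, and every list member past it. Of each list, the 6 members with the largest mean and equal sign on both arrays and the 3 brightest were also eligible. Alternatives were other background corrections and offsets, Agilent's processed signals, median centring, the mean of all probes, other filters on dim probes, each array alone, the deposited log2 ratios and a threshold of 0.7.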

Additional observations from a re-analysis of the deposited data

Results flagged for a closer look

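For 11 gene lists and 7 genes past the size rule, both 6 dpf arrays lay on one side of 0 and both 3 dpf arrays on the other. The difference between the ages was not tested, and each age had 1 pool per genotype.

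The list with the widest gap was bile acid synthesis and transport, whose median was 0.42 at 6 dpf but -0.34 at 3 dpf. Its single arrays gave 0.38 and 0.46 at 6 dpf and -0.27 and -0.30 at 3 dpf. The median was 0.19 against -0.17 for cardiac muscle genes and 0.19 against -0.13 for DNA replication and cell division. Smaller medians turned for epidermis and keratins (0.0796 against -0.13), heat shock and protein folding (0.11 against -0.01), cartilage and bone matrix (0.0851 against -0.03) and erythroid genes (0.0777 against -0.03). The sign ran the other way, lower at 6 dpf and higher at 3 dpf, for p53 targets and apoptosis (-0.14 against 0.07), activity-induced transcription factors (-0.0504 against 0.15), iron and heme handling (-0.0861 against 0.04) and endocrine pancreas genes (-0.0231 against 0.06). Some of these turns were slight: at 6 dpf array 2 gave -0.0009 for iron and heme handling. The median log2 ratio of endocrine pancreas hormones and factors was 0.0091 with the mean of all probes and 0.002 without the filter on dim probes, which ended the turn. The median log2 ratio of epidermis and keratins was -0.0369 with median centring and -0.0099 with the mean of all probes, which ended it too.

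Of the single genes, si:dkey-7c18.24 stood at 1.07 at 6 dpf and -0.75 at 3 dpf, and ahrra at 1.03 and -0.32. At 3 dpf ahrra was well above background in the mutant on 1 array only, and the arrays gave -0.11 and -0.54. The pentraxin apcs stood at 1.45 and -0.13, pomca at 1.16 and -0.12, LOC100148804 at 1.04 and -0.19, the green opsin opn1mw2 at 1.09 and -0.06 and the crystallin crygm2b at -1.07 and 0.03. The genes si:dkey-7c18.24 and LOC100148804 were chosen after their values were seen.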

How the results depend on the processing

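None of the 7 list medians followed here turned its sign under the alternatives. Signs of single genes could depend on the probe. For dgat2 the brightest probe stood at -0.46 and the others at -0.26 and 0.77. The 35 higher and 48 lower genes became 56 and 75 with normexp offset 10, 138 and 118 with Agilent's processed signals, 141 and 120 with the log2 ratios of the authors' deposited table, and 91 and 130 at a threshold of 0.7. They lay between 25 and 35 higher and 41 and 51 lower under the other alternatives that kept both arrays. On 1 array alone they lay between 35 and 46 higher and 58 and 60 lower. The cause of these shifts was not tested. The size of single ratios depended on the processing too. Of the 83 genes past the rule, 56 were counted as moved in ratio with Agilent's processed signals, and 56 with the deposited ratios. With normexp offset 10, 42 moved and 41 did not, and with no background subtraction 30 moved and 53 did not. Median centring moved 17 and the mean of all probes 25. Folds given here hold for normexp offset 50, and errors marked ± do not cover this dependence.

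On 1 array alone, the list medians ranged from -0.86 to -0.68 for exocrine pancreas enzymes, from -0.89 to -0.61 for lens crystallins, from 0.30 to 0.39 for phototransduction, from -0.15 to -0.12 for skeletal muscle, from 0.38 to 0.46 for bile acid genes, from 0.20 to 0.25 for the interferon response and from 0.17 to 0.21 for DNA replication. With Agilent's processed signals the medians were 0.57 for bile acid genes, 0.40 for phototransduction, -0.10 for skeletal muscle, 0.31 for the interferon response and 0.29 for DNA replication, and the authors' deposited table gave 0.57, 0.40, -0.10, 0.31 and 0.29. Since the deposited table gave the same medians here as the processed signals, it is not counted as a separate check. Offset 10 gave 0.54 for bile acid genes and 0.22 for DNA replication, and no background subtraction gave 0.35 for bile acid genes and 0.18 for the interferon response. Median centring gave -0.30 for skeletal muscle and 0.19 for the interferon response, and the mean of all probes gave -0.14 for skeletal muscle. Without the filter on dim probes the medians were 0.27 for bile acid genes and 0.12 for the interferon response, and with genes above background in both genotypes the latter was 0.19. Of all 39 lists, between 31 (array 2 alone) and 38 (offset 10) kept the sign of the median.

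No paired analysis was possible because each genotype had 1 pool at 6 dpf, and the labels number no replicates. Without replicate pools the spread between larvae is unknown. Of the kept genes past the rule, 3 were among the dimmest and 31 among the brightest when genes were cut into 4 equal classes of signal, and dim genes have only bounds where a genotype is not above background.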

Other observations

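Several of the highest ratios at 6 dpf belonged to genes known only by a clone or locus name, which were chosen after their values were seen. They were si:dkey-247k7.2 at 2.56 ± 0.14, zgc:153932 at 2.45 ± 0.01, zgc:111983 at 2.21 ± 0.18, LOC100005636 at 2.08 ± 0.07 and zgc:158846 at 1.86 ± 0.01. The other zgc:158846 probe stood at 0.01, and the 2 other zgc:111983 probes at 0.69 and 1.37. At 3 dpf si:dkey-247k7.2 gave 1.05 and 1.15 on the arrays, and the other 4 genes stood at 1.36 ± 0.17, 1.46 ± 0.19, 1.17 ± 0.08 and 1.77 ± 0.17 in the same order.

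A ratio that went with the dye was large for a few list members, picked with their values known. The keap1b probe, for the sensor of oxidative stress, gave 0.79 and -0.81 on arrays 1 and 2, the il7r probe 0.84 and -0.72 and the creg1 probe 0.65 and -0.52. Their means over the arrays were -0.01, 0.06 and 0.06. The half-difference of the arrays was widest for bright probes, with an SD over genes of 0.183 in the brightest and 0.108 in the dimmest of 4 equal classes of signal.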
